A study of Mus musculus with 3 samples.

Results

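Poly(A) RNA from mouse embryonic stem (ES) cells was sequenced in 3 libraries, and the comparison described here sets the library labelled as cells in which Pcgf1 was put back (Pcgf1-/-+Pcgf1) beside that of wild-type (WT) cells. The WT and Pcgf1-/- libraries came from cells of strain C57BL/6, and in the Pcgf1-/- line, grown from a picked colony after CRISPR/Cas9 editing with a pair of guides, exons 2 and 3 of Pcgf1 were deleted. By the label and the methods, the third library, also C57BL/6, came from Pcgf1-/- cells infected with a lentivirus carrying FLAG-tagged Pcgf1 and selected with puromycin, and would so share the deletion. No row for the deleted form of Pcgf1 was listed for it, as given below. It is therefore called the library labelled Pcgf1-/-+Pcgf1, or the rescued library for short. All cells were kept undifferentiated with serum and LIF on inactivated mouse embryonic fibroblasts. There was 1 library for each of the 3 groups, so every difference below is between libraries and has no replicate check, and no test between groups was possible.

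The genes described were chosen on measured values: a gene was kept when its level was 1 FPKM (fragments mapped, scaled for transcript length and for all fragments mapped in the library) or more in both the WT and the Pcgf1-/-+Pcgf1 library, so that no ratio rested on a zero. A gene's level was the larger of its summed FPKM over first-exon rows and over last-exon rows. Of 26366 gene names in the series, 9082 were kept. Another 278 names were at 1 FPKM or more in WT cells only, 416 in the library labelled Pcgf1-/-+Pcgf1 only and 15804 in neither, while 786 had no locus of their own in 1 of these 2 libraries. Just inside the limit were Iqsec2, at 1.0002 FPKM in the library labelled Pcgf1-/-+Pcgf1, and Sapcd1, at 1.0012 FPKM in WT cells. Just outside were Fthl17a, at 0.9999 FPKM, and Nppc, at 0.9995 FPKM, both in WT cells.

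Pcgf1 is the Polycomb group RING finger protein that defines the PRC1.1 complex, in which it works with Ring1b, Rybp, Bcor and the CpG-binding protein Kdm2b. The complex attaches ubiquitin to histone H2A at CpG islands. In ES cells, Polycomb complexes keep genes of differentiated lineages low, and many genes of the germline are held silent by a related complex with E2f6, Mga and Max and by DNA methylation.

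Pcgf1 itself, which GENCODE vM21 (mm10) places on chromosome 6 between 83077869 and 83080855, plus strand, was at 14.0 FPKM in WT, 5.88 FPKM in Pcgf1-/- and 7.86 FPKM in the library labelled Pcgf1-/-+Pcgf1. The last of these was lower than WT by a log2 ratio of -0.83. A row for the transcript that skips exons 2 and 3, from 83078895 to 83079268, was listed only in the Pcgf1-/- library, where it had 5.88 FPKM. In the Pcgf1-/-+Pcgf1 library all of the Pcgf1 signal lay on the same first exon as in WT cells, from 83078346 to 83078478, and no skipping row was listed. No row for the deleted form was thus listed in that library, although its label derives it from the Pcgf1-/- line. A missing row does not show that the transcript was absent, and whether these cells carry the deletion was not tested here. The paper reports immunoprecipitation of FLAG-tagged Pcgf1 from its rescued line. Every direction given below is that of the library labelled Pcgf1-/-+Pcgf1.

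The libraries were checked for ES cell identity. Pou5f1, the defining factor of pluripotency, was at 670 FPKM in WT, 518 FPKM in Pcgf1-/- and 626 FPKM in the library labelled Pcgf1-/-+Pcgf1. All 11 general pluripotency factors with a locus of their own passed the limit, 0 of them differed over 2-fold, and their log2 ratios ran from -0.47 to 0.85. Sox2 had no locus of its own in the WT and Pcgf1-/- libraries and was left out. Of the 29 fibroblast markers that would report the feeder layer, 13 were kept, with 0 over 2-fold higher and 1 lower. Over all genes kept, 1.54% were over 2-fold higher and 1.5% lower. Their summed level was 214 FPKM in WT, 152 FPKM in Pcgf1-/- and 168 FPKM in the library labelled Pcgf1-/-+Pcgf1, of which Fn1 alone gave 110 FPKM, 75.7 FPKM and 74.9 FPKM. Postn, Fap and Igfbp7 were at 0 in all 3 libraries. In bulk libraries, fewer cells of a type and less RNA per cell cannot be told apart.

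Most genes were at similar levels in the rescued and the WT library. The median log2 ratio of the 9082 genes was -0.12, with an SD of 0.42 over genes, and the central 90% ran from -0.71 to 0.55. Within 2-fold were 8806 genes (97.0%), while 140 genes (1.54%) were over 2-fold higher and 136 genes (1.5%) over 2-fold lower in the library labelled Pcgf1-/-+Pcgf1. Because the median lay 0.12 below 0 on the log2 scale, list medians are to be read beside it. Centred on that median, the counts were 181 higher and 90 lower. Over 3-fold, 42 genes were higher and 23 lower.

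**Figure D1:**
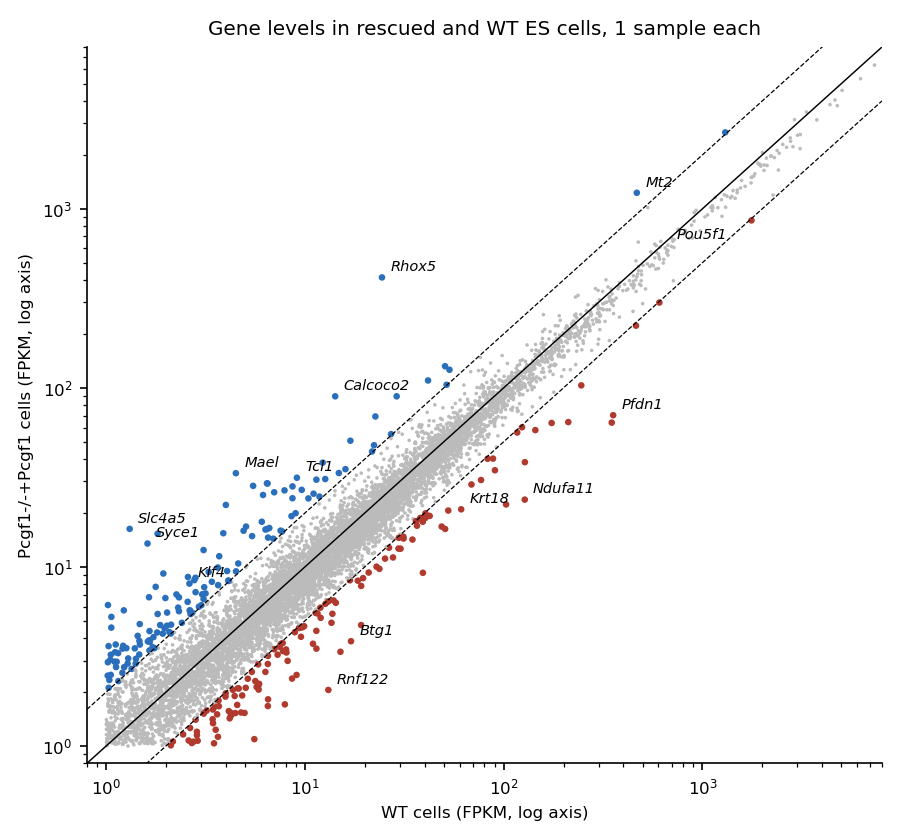
Each point is 1 of the 9082 genes, with its FPKM in WT cells on the horizontal axis and in the library labelled Pcgf1-/-+Pcgf1 on the vertical axis, both on log scales. The solid line marks equal levels and the dashed lines 2-fold, beyond which 140 genes (blue) lie above and 136 (red) below, and Rhox5 lies farthest from the line.

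Germline genes stood highest among the lists examined. Of 28 meiosis and germline genes with a locus of their own, 11 passed the limit, and 6 of these were over 2-fold higher in the library labelled Pcgf1-/-+Pcgf1 and 0 lower, beside 1.54% and 1.5% of all genes kept. Their median log2 ratio was 1.63, against -0.12 for all genes. The 6 were Syce1, Mael, Sycp1, Piwil2, Ddx4 and Tuba3a.

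Mael, which acts in the piRNA pathway that silences transposons in germ cells, was at 4.49 FPKM in WT, 4.41 FPKM in Pcgf1-/- and 33.4 FPKM in the library labelled Pcgf1-/-+Pcgf1, 7.42-fold over WT. Piwil2, a Piwi protein that binds piRNAs, was at 6.16 FPKM, 4.52 FPKM and 25.2 FPKM in the same order. Ddx4, the RNA helicase of the germ line also known as Vasa, was at 7.01 FPKM, 8.88 FPKM and 26.1 FPKM. For all 3 genes the rescued library stood apart, while the WT and Pcgf1-/- libraries lay close together.

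The same order held for genes of the synaptonemal complex, the protein scaffold that joins paired chromosomes in meiosis. Syce1, a protein of its central element, was at 1.62 FPKM in WT, 2.16 FPKM in Pcgf1-/- and 13.5 FPKM in the library labelled Pcgf1-/-+Pcgf1. Sycp1, which forms its transverse filaments, was at 1.23 FPKM, 1.17 FPKM and 5.72 FPKM. Syce3, another central element protein that was not on the list but was among the 15 highest genes, was at 1.94 FPKM, 1.55 FPKM and 9.19 FPKM. These genes were close to the limit of 1 FPKM in the libraries where they were low.

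Not every germline gene followed. Sycp3, of the lateral element, had a log2 ratio of 0.25, from 6.64 FPKM in WT to 7.93 FPKM in the library labelled Pcgf1-/-+Pcgf1. Tex15, which acts in meiotic recombination and piRNA silencing, was at 3.87 FPKM in WT and 3.44 FPKM in the library labelled Pcgf1-/-+Pcgf1. Stra8, the retinoic acid target that marks entry into meiosis, had a log2 ratio of 0.83, Zcwpw1 of 0.46 and Tex14 of 0.43. Tuba3a, a testis tubulin, was at 3.71 FPKM in WT, 2.51 FPKM in Pcgf1-/- and 11.5 FPKM in the library labelled Pcgf1-/-+Pcgf1, and its value is uncertain because Tuba3b is a near-identical copy.

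Across the 11 germline genes the log2 ratio of Pcgf1-/- to WT ran from -1.01 to 0.42 with a median of -0.13, and that of Pcgf1-/-+Pcgf1 to Pcgf1-/- from -0.41 to 2.92 with a median of 1.56. These ratios share libraries with the comparison above and are given only to place the Pcgf1-/- library. The other 17 germline genes measured did not pass the limit. Of these, 7 were below 1 FPKM in both WT and rescued libraries. The other 10 reached 1 FPKM in the rescued library only, and 0 did so in WT cells only. Over all gene names, 416 reached it in the rescued library only and 278 in WT cells only. Genes sorted into the 10 are, by definition, below 1 FPKM in WT cells and not in the rescued library. In those 10 the level was between 0.201 and 0.841 FPKM in WT cells, between 0.107 and 0.978 FPKM in Pcgf1-/- cells and between 1.09 and 4.57 FPKM in the library labelled Pcgf1-/-+Pcgf1. Dazl, an RNA-binding protein of germ cells, was at 0.201 FPKM, 0.737 FPKM and 3.70 FPKM, and Taf7l, a testis form of a general transcription factor, was at 0.658 FPKM, 0.329 FPKM and 4.57 FPKM. Of the 26 germline genes above 0 in the WT or the rescued library, 25 were higher in the rescued library. The same share over all genes above 0 is not given here, and many of these genes were below 1 FPKM in WT cells.

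**Figure D2:**
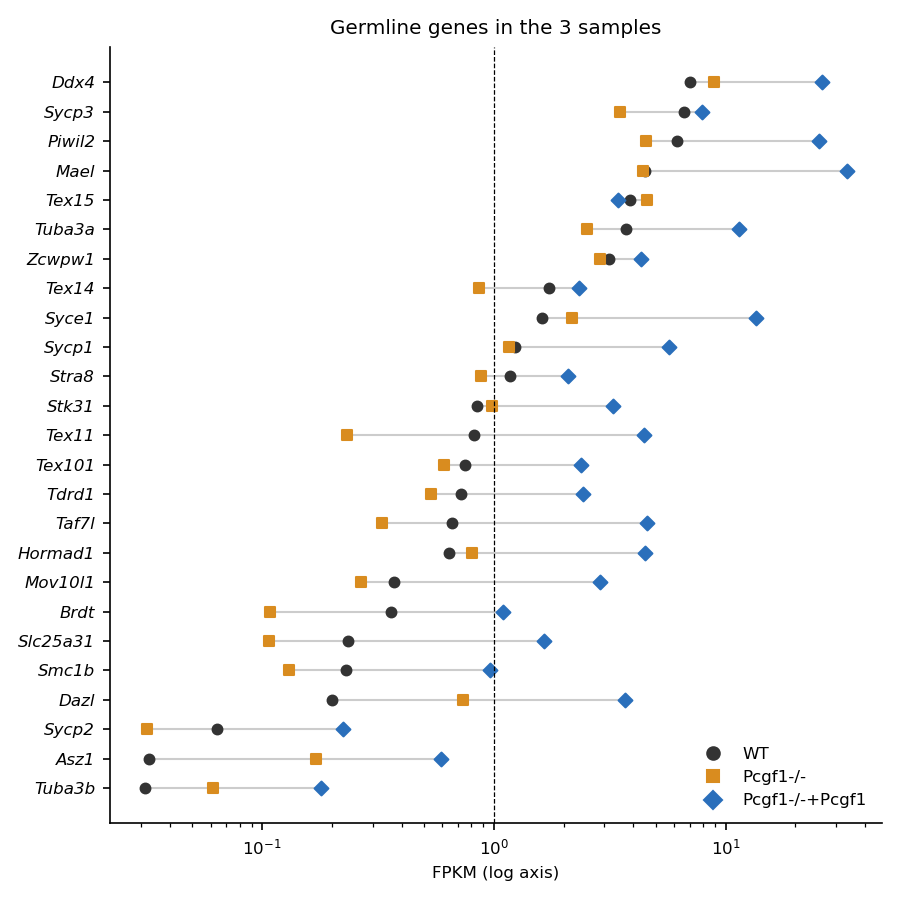
Levels of the germline genes above 0 in WT and the library labelled Pcgf1-/-+Pcgf1, in FPKM on a log axis, with 1 point for each library and genes ordered by WT level. The dashed line marks 1 FPKM, and the rescued library (diamonds) is at the right for every gene but Tex15.

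Further genes that work in germ cells were outside the list. Sohlh2, a helix-loop-helix factor of early germ cells and among the 15 highest genes, was at 4.0 FPKM in WT, 2.44 FPKM in Pcgf1-/- and 22.2 FPKM in the library labelled Pcgf1-/-+Pcgf1. Singled out after the values were seen, Tex19.1, which restrains transposons in germ cells and ES cells, was at 28.9 FPKM, 31.0 FPKM and 89.7 FPKM. Dmrt1, a sex-determining factor of the testis, also singled out afterwards, was at 8.56 FPKM, 4.79 FPKM and 19.2 FPKM. In each case the rescued library was over 2-fold above WT and the Pcgf1-/- library was not.

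The stretch before the start of 3 of the highest germline genes is shown because CpG-rich promoters with E2f6 and Mga-Max sites are the kind at which germline genes are silenced. Each run is the 250 bases before the RefSeq start on GRCm38.p6, read 5′ to 3′ on the gene's strand, and the file's first exon began at that start in all 3. Capitals mark CACGTG (the E-box) and TCCCGC (an E2F core, GCGGGA on the other strand), which were searched on both strands and did not overlap. Mael lies on the minus strand, chr1:166238745-166238994, with 18 CpG, 1 E-box and 1 E2F core. Sycp1 lies on the minus strand, chr3:102936101-102936350, with 17 CpG and 1 E-box. Syce1 lies on the minus strand, chr7:140787855-140788104, with 13 CpG and neither motif.
Mael: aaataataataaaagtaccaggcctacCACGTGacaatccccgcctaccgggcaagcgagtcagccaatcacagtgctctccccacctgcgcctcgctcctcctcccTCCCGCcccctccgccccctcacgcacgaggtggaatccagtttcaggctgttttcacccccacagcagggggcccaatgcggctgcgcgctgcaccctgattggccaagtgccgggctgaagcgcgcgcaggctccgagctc
Sycp1: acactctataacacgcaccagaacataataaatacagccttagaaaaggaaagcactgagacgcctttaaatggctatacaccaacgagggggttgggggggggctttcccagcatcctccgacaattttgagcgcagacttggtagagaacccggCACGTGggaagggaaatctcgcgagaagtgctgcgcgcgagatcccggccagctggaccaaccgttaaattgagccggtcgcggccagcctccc
Syce1: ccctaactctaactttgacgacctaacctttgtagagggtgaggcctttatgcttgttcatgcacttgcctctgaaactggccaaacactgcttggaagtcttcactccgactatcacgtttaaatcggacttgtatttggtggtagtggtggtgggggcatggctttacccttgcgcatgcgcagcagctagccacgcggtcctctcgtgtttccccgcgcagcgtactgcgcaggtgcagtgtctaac

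Of the 11 germline genes, 8 had a RefSeq start within 500 bases of the file's first exon, among them 4 with an E-box (Ddx4, Mael, Sycp1 and Sycp3) and 5 with an E2F core (Ddx4, Mael, Sycp3, Tex14 and Tuba3a). Among all 6322 genes kept that had such a start, 9.21% held an E-box and 34.2% an E2F core, and among all 32817 promoters of the reference the shares were 6.02% and 16.9%. Sycp3 and Tex14 held a motif and were within 2-fold of WT. The motifs were chosen after the higher genes were known, and a match is a description of letters only.

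Among the genes kept that had such a start, promoters of those more than 2-fold higher held fewer CpG than the rest. The median count in 250 bases was 12 for the 83 higher genes with a start, 16 for the 93 lower genes and 17 for the 6146 genes within 2-fold. The E-box was found in 12% of the higher and 6.45% of the lower genes, and the E2F core in 37.3% and 33.3%. The 8 germline promoters had a median of 16.5 CpG, near that of all genes. Over all 32817 promoters of the reference the median was 6 CpG. Higher genes without such a start are not in these counts, and genes of like level were not compared.

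**Figure D3:**
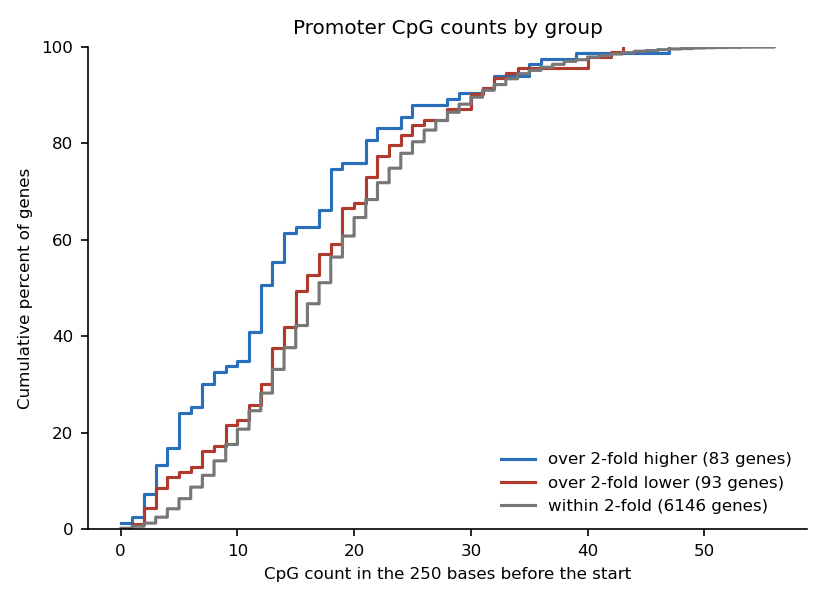
Cumulative percent of genes against the number of CpG in the 250 bases before the start, for genes over 2-fold higher, over 2-fold lower and within 2-fold in the library labelled Pcgf1-/-+Pcgf1. The curve of the 83 higher genes lies to the left, with a median of 12 CpG against 16 for lower genes and 17 for genes within 2-fold.

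The Rhox genes, a cluster of homeobox genes on the X chromosome named for expression in reproductive tissue, held the highest ratio of all. Rhox5 (chromosome X, plus strand, from 37804842 to 37808876) was at 24.4 FPKM in WT, 129 FPKM in Pcgf1-/- and 414 FPKM in the library labelled Pcgf1-/-+Pcgf1, a log2 ratio of 4.08 to WT. Its first-exon rows summed to 188 FPKM in the rescued library and its last-exon rows to 414 FPKM. Rhox6 was at 5.49 FPKM, 10.7 FPKM and 28.4 FPKM. Rhox9 was at 5.06 FPKM, 7.08 FPKM and 16.8 FPKM. All 3 ran in the order WT, Pcgf1-/-, Pcgf1-/-+Pcgf1, so that the Pcgf1-/- library lay between the others.

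Of the 37 Rhox genes with a locus of their own, 3 passed the limit and 24 were at 0 in every library. Rhox1 was at 0.792 FPKM in WT, 0.522 FPKM in Pcgf1-/- and 9.43 FPKM in the library labelled Pcgf1-/-+Pcgf1, and Rhox13 was at 0.747 FPKM, 0.778 FPKM and 9.27 FPKM, so both fell outside the limit by their WT level. Many Rhox genes are near-identical copies that share reads, and their values are uncertain. The X chromosome as a whole had 9 of 297 genes (3.03%) over 2-fold higher and 1 lower, beside 1.54% and 1.5% of all genes kept. Over the autosomes the share of higher genes ran from 0% (chromosome 16) to 2.70% (chromosome 2). The median log2 ratio of the X chromosome, -0.09, was near that of all genes. The 9 included Bcor and Pnma5 beside the Rhox genes.

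Within the list of trophoblast genes and simple epithelial keratins, to which the Rhox genes belong, 10 genes were kept, 3 over 2-fold higher and 2 over 2-fold lower, beside 1.54% and 1.5% of all genes kept, with a median log2 ratio of 0.58 against -0.12 for all genes. The 2 lower genes were the keratin pair of simple epithelia. Krt8 was at 68.9 FPKM in WT, 66.3 FPKM in Pcgf1-/- and 28.9 FPKM in the library labelled Pcgf1-/-+Pcgf1, and Krt18, its filament partner, at 61.1 FPKM, 49.1 FPKM and 20.97 FPKM. Both were about as high in the Pcgf1-/- library as in WT. Cdx2, the defining factor of trophectoderm, was below 1 FPKM in all 3 libraries.

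Several genes of naive pluripotency were higher in the rescued library. Of 14 kept, 4 were over 2-fold higher and 0 lower, beside 1.54% and 1.5% of all genes kept, with a median log2 ratio of 0.50 against -0.12 for all genes. Tcl1, a coactivator of Akt, was at 9.11 FPKM in WT, 4.50 FPKM in Pcgf1-/- and 31.5 FPKM in the library labelled Pcgf1-/-+Pcgf1. Klf4, a Krüppel-like reprogramming factor downstream of LIF, was at 2.62 FPKM, 1.19 FPKM and 8.07 FPKM. Tet2, a dioxygenase that oxidises methylcytosine, was at 2.33 FPKM, 1.67 FPKM and 6.76 FPKM. For these 3 genes Pcgf1-/- was the lowest library and the rescued library went past WT.

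Nr5a2, a nuclear receptor that binds the Pou5f1 gene, had another order, with 4.50 FPKM in WT, 9.84 FPKM in Pcgf1-/- and 9.45 FPKM in the library labelled Pcgf1-/-+Pcgf1. Nanog, a general pluripotency factor, was at 68.2 FPKM, 46.3 FPKM and 123 FPKM, a log2 ratio of 0.85 to WT. Other naive markers were close to WT: Esrrb had a log2 ratio of -0.14, Zfp42 of 0.01 and Klf2, the most abundant of them, of -0.54. Tet2 was also the only one of 7 DNA methylation enzymes over 2-fold apart, beside 1.54% higher and 1.5% lower of all genes kept. Dnmt1, Dnmt3a, Uhrf1, Tet1, Tet3 and Tdg had log2 ratios between -0.15 and 0.27.

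Several metallothioneins, small proteins that bind zinc and copper, were higher as well. Of 10 genes kept in the metal response list, 3 were over 2-fold higher and 0 lower, beside 1.54% and 1.5% of all genes kept, with a median log2 ratio of 0.21 against -0.12 for all genes. Mt2 was at 467 FPKM in WT, 1674 FPKM in Pcgf1-/- and 1228 FPKM in the library labelled Pcgf1-/-+Pcgf1. Mt1 was at 531 FPKM, 902 FPKM and 1015 FPKM, a log2 ratio of 0.93 to WT. Slc30a1, the zinc exporter of the plasma membrane, was at 1.93 FPKM, 4.13 FPKM and 4.24 FPKM. For these 3 genes, both other libraries lay above WT.

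Mt4, a metallothionein of stratified epithelium, differed from them, with 6.44 FPKM in WT, 5.91 FPKM in Pcgf1-/- and 29.3 FPKM in the library labelled Pcgf1-/-+Pcgf1. Mtf1, the zinc-sensing factor that binds metallothionein promoters, was at 3.15 FPKM in WT and 3.50 FPKM in the rescued library. The 250 bases before the start of Mt2 (plus strand, chr8:94172368-94172617, RefSeq on GRCm38.p6) are shown for the metal response elements that Mtf1 is known to bind. Capitals mark the core TGCACNC or TGCGCNC on either strand, found 3 times there. Any match was found in 32.5% of the 6322 genes kept with a RefSeq start within 500 bases of the first exon. It was found in 21.4% of all promoters of the reference. How many promoters held 3 was not counted.
Mt2: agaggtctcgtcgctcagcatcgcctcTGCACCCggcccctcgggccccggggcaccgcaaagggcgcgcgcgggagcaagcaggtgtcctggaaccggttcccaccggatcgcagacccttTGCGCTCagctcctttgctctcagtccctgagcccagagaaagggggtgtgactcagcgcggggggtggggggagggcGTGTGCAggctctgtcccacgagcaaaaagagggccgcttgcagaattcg

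**Figure D4:**
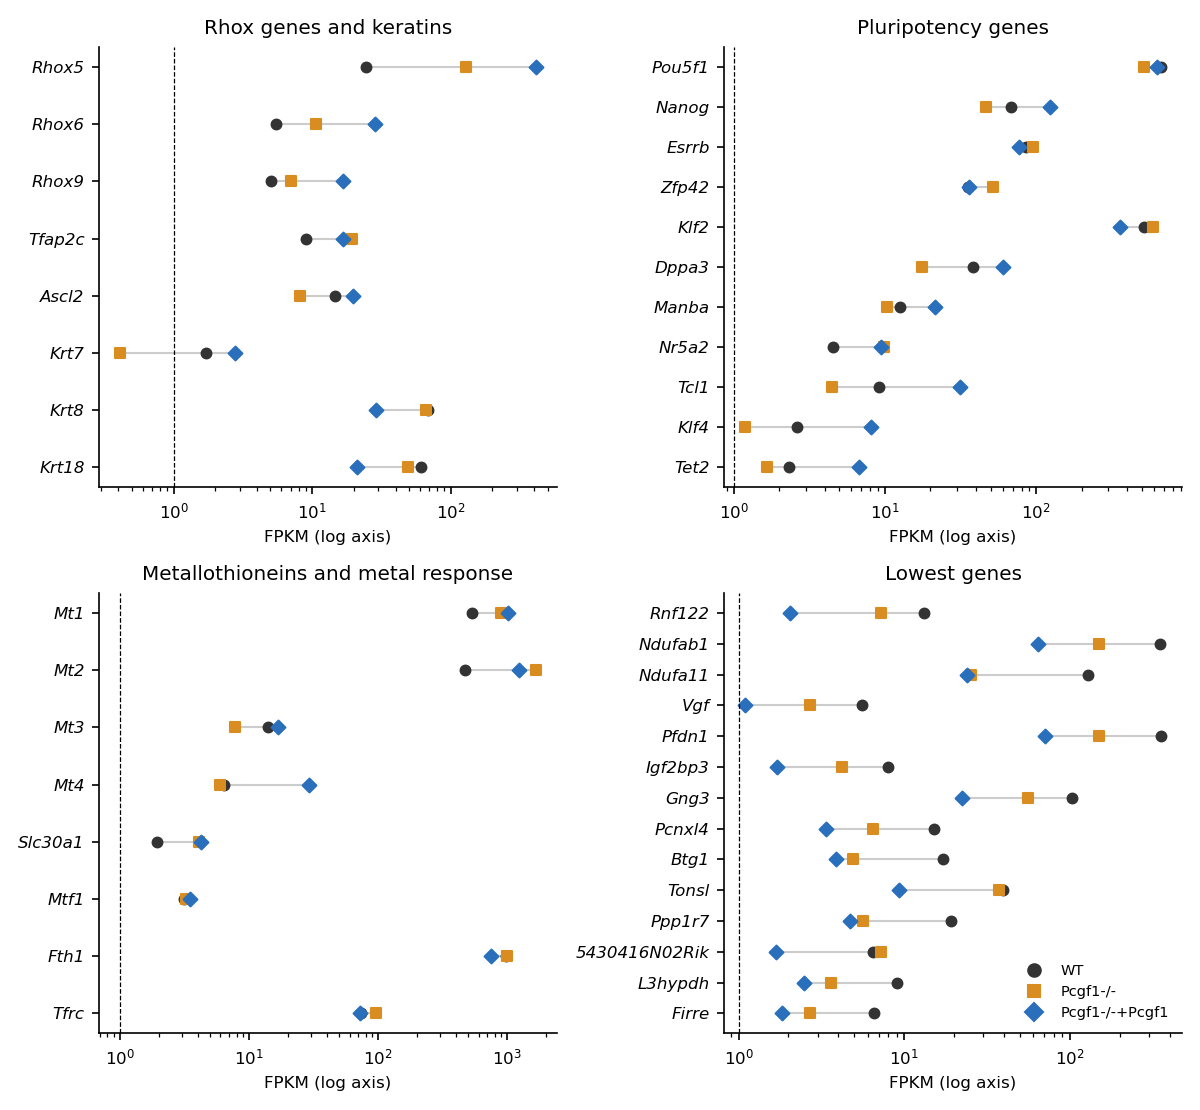
Levels of named genes in WT (circles), Pcgf1-/- (squares) and the library labelled Pcgf1-/-+Pcgf1 (diamonds), in FPKM on a log axis, with 1 library for each point and a dashed line at 1 FPKM. In the panel of the lowest genes, Pcgf1-/- lies between the other libraries for every gene shown but 5430416N02Rik.

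Among subunits of PRC1.1, 6 were kept, 1 higher and 1 lower by over 2-fold, beside 1.54% and 1.5% of all genes kept. Bcor, the corepressor that Pcgf1 binds directly, was at 4.06 FPKM in WT, 5.33 FPKM in Pcgf1-/- and 9.49 FPKM in the library labelled Pcgf1-/-+Pcgf1. Rybp, which stimulates the ubiquitin ligase, was at 30.3 FPKM, 40.3 FPKM and 12.6 FPKM, and its last-exon rows were listed at 0 in the rescued library. Ring1, Yaf2 and Usp7 had log2 ratios of 0.00, -0.33 and 0.15. Rnf2, which encodes Ring1b, was at 36.9 FPKM in WT and 39.4 FPKM in Pcgf1-/-. It had no locus of its own in the library labelled Pcgf1-/-+Pcgf1, and so had no ratio.

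The other Polycomb genes were close to WT. Of 18 further PRC1 subunits and 10 PRC2 subunits kept, 0 were over 2-fold apart, with medians of -0.08 and 0.18 against -0.12 for all genes. Over all genes kept, 1.54% were over 2-fold higher and 1.5% lower, so 0 in lists of this size does not set them apart. The largest ratio among the PRC1 subunits was that of Fbrsl1, at 14.2 FPKM in WT and 26.6 FPKM in the library labelled Pcgf1-/-+Pcgf1. E2f6, which recruits the Pcgf6 complex to germline genes, had a log2 ratio of 0.50, Pcgf6 of 0.07, Mga of 0.02 and Max of -0.17. Suz12, a core subunit of PRC2, was at 42.0 FPKM in WT, 42.9 FPKM in Pcgf1-/- and 61.6 FPKM in the rescued library, and Pcgf5, a paralogue of Pcgf1, at 8.12 FPKM, 10.2 FPKM and 10.6 FPKM.

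Lineage and signalling genes held few differences. Of the 26 genes kept in the TGF-beta, Nodal and BMP list, 2 were over 2-fold higher and 0 lower, beside 1.54% and 1.5% of all genes kept. Bmp4, a ligand that acts with LIF in ES cells, was at 2.64 FPKM in WT, 19.97 FPKM in Pcgf1-/- and 5.69 FPKM in the library labelled Pcgf1-/-+Pcgf1. Id3, a BMP target that inhibits helix-loop-helix factors, was at 12.7 FPKM, 35.9 FPKM and 31.0 FPKM. Id1, another such target, was at 85.1 FPKM, 423 FPKM and 95.04 FPKM, and Id2 was at 74.7 FPKM, 118 FPKM and 125 FPKM. Of the 3, Id1 was near WT in the rescued library, and Id2 and Id3 were near the Pcgf1-/- level.

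Kdr, the receptor of vascular endothelial growth factor known as Flk1, was at 2.13 FPKM in WT, 0.198 FPKM in Pcgf1-/- and 1.33 FPKM in the library labelled Pcgf1-/-+Pcgf1. Zic2, a zinc finger factor of the epiblast, was at 17.2 FPKM, 1.004 FPKM and 11.1 FPKM, and Otx2, a head and epiblast homeobox factor, at 2.35 FPKM, 0.382 FPKM and 1.66 FPKM. For these 3 genes the rescued library was within 2-fold of WT and the Pcgf1-/- library was the lowest. Hes2, a repressor of the Hairy family, was at 2.04 FPKM, 0.345 FPKM and 0.871 FPKM and fell outside the limit. Hhip, at 0.443 FPKM, 0.0105 FPKM and 0.256 FPKM, and Nptx1, at 0.789 FPKM, 0.382 FPKM and 0.446 FPKM, also did, and Neurod1 had no locus of its own. Of the genes kept, 0 of 9 epiblast and 0 of 8 endoderm genes were over 2-fold apart. Over 2-fold apart were 1 of 4 primitive streak and mesoderm genes (Bmp4, higher), 1 of 9 vascular and blood genes (Etv2, higher by a log2 ratio of 1.17) and 1 of 7 neuroectoderm genes (Stmn3, lower, with a log2 ratio of -1.70). Over all genes kept, 1.54% were over 2-fold higher and 1.5% lower.

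Among the 15 highest genes, outside the groups above, several have roles away from the germline. Slc4a5, a sodium bicarbonate cotransporter, was at 1.31 FPKM in WT, 0.406 FPKM in Pcgf1-/- and 16.3 FPKM in the library labelled Pcgf1-/-+Pcgf1. Calcoco2, an autophagy receptor, was at 14.2 FPKM, 17.6 FPKM and 89.7 FPKM. Prkcz, an atypical protein kinase C, was at 6.49 FPKM, 5.22 FPKM and 29.3 FPKM. In these the rescued library was the high one and the others were near each other or lower.

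Npr1, the receptor of natriuretic peptides, was at 1.78 FPKM in WT, 17.4 FPKM in Pcgf1-/- and 7.74 FPKM in the library labelled Pcgf1-/-+Pcgf1, and on first-exon rows alone it was lower than WT, by a log2 ratio of -0.39. Smtnl1, a muscle protein related to smoothelin, was at 1.82 FPKM, 0.188 FPKM and 15.3 FPKM. Tmem141, a membrane protein, was at 1.06 FPKM, 1.07 FPKM and 5.26 FPKM, and AI118078, whose last-exon rows were at 0, at 1.02 FPKM, 1.04 FPKM and 6.13 FPKM. Of the 15 highest genes, 7 were above WT in the Pcgf1-/- library and 8 below it, with a median log2 ratio of Pcgf1-/- to WT of -0.03.

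The lowest genes showed another arrangement. In 14 of the 15 lowest, the Pcgf1-/- library was also below WT and above the rescued library, with a median log2 ratio of Pcgf1-/- to WT of -1.21. This arrangement rests on the larger sum and differs on the other rows for Ndufab1, Pcnxl4, L3hypdh and Tonsl. Among the 8 of the 15 with equal sums, it held for 7. Both ratios divide by the same WT library, so a high value in that library alone lowers both. Over all 136 genes more than 2-fold lower, 115 were below WT in the Pcgf1-/- library as well, and among the 139 higher genes with a Pcgf1-/- value above 0, 85 were above WT there. The same shares over all genes kept are not given here.

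Rnf122, a RING-type ubiquitin ligase, was at 13.1 FPKM in WT, 7.22 FPKM in Pcgf1-/- and 2.06 FPKM in the library labelled Pcgf1-/-+Pcgf1, 6.38-fold below WT. Btg1, an antiproliferative factor, was at 17.1 FPKM, 4.87 FPKM and 3.85 FPKM. Vgf, a precursor of secreted neuroendocrine peptides, was at 5.57 FPKM, 2.71 FPKM and 1.09 FPKM. Each had equal first-exon and last-exon sums.

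Pfdn1, a subunit of the prefoldin chaperone, was at 355 FPKM, 149 FPKM and 70.3 FPKM in the same order. Ndufa11, a subunit of respiratory complex I, was at 128 FPKM, 25.2 FPKM and 23.8 FPKM. Ppp1r7, a regulator of protein phosphatase 1, was at 19.2 FPKM, 5.66 FPKM and 4.73 FPKM. In the last 2 genes the Pcgf1-/- level was close to the rescued level. 5430416N02Rik, a long noncoding RNA, was at 6.51 FPKM, 7.22 FPKM and 1.67 FPKM.

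In 7 of the 15 lowest genes and 5 of the 15 highest, the first-exon and last-exon sums differed in the WT or the rescued library, and some ratios turned with the rows used. Ndufab1, the mitochondrial acyl carrier protein, was at 350 FPKM in WT, 149 FPKM in Pcgf1-/- and 63.9 FPKM in the library labelled Pcgf1-/-+Pcgf1, but its last-exon rows in WT cells summed to 20.6 FPKM, and on those rows the log2 ratio was 1.64 instead of -2.45. Pcnxl4 had a log2 ratio of -2.17 overall and 0.84 on last-exon rows, and L3hypdh, a hydroxyproline dehydratase, of -1.86 and 1.08. Tonsl, a protein of replication fork repair, had -2.08 overall and 0.70 on first-exon rows. The direction of these 4 genes therefore depended on the rows.

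Gng3, a G protein gamma subunit, was at 103 FPKM, 55.8 FPKM and 22.3 FPKM and was lower on either set of rows. Igf2bp3, an mRNA-binding protein, at 7.93 FPKM, 4.19 FPKM and 1.71 FPKM, and Firre, an X-linked noncoding RNA, at 6.53 FPKM, 2.70 FPKM and 1.82 FPKM, could be compared on first-exon rows only, because last-exon rows were at 0 in the rescued library for both genes, and in WT cells as well for Igf2bp3. Of the 6182 genes with equal sums in both libraries, 175 (2.83%) were over 2-fold apart, and of the other 2900, 101 (3.48%).

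Cell cycle genes were mostly near WT. Of 21 cyclins, Cdks and inhibitors kept, 0 were higher and 2 lower by over 2-fold, beside 1.54% and 1.5% of all genes kept. Both of the lower genes were Cdk inhibitors. Cdkn1b, which encodes p27, was at 10.98 FPKM in WT, 10.92 FPKM in Pcgf1-/- and 3.72 FPKM in the library labelled Pcgf1-/-+Pcgf1. Cdkn2a, the Ink4a/Arf locus and a classic Polycomb target, was at 14.3 FPKM, 47.7 FPKM and 6.30 FPKM. Of 29 mitosis genes, 0 were over 2-fold apart.

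Of 23 genes induced by p53 that were kept, 0 were over 2-fold higher and 1 lower, beside 1.54% and 1.5% of all genes kept. The lower gene was Ercc5, at 7.56 FPKM in WT and 3.71 FPKM in the library labelled Pcgf1-/-+Pcgf1. The median log2 ratio of the 23 genes was -0.31 against -0.12 for all genes, and 3 of the 23 lay above the median of all genes. Immediate early genes had a median of -0.39 over 13 genes with 0 past 2-fold, and 2 of them lay above the median of all genes.

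Housekeeping functions had medians near the -0.12 of all genes. Cytosolic ribosomal proteins had a median log2 ratio of -0.21 over 52 genes with 1 higher (Rps7, on first-exon rows only) and 1 lower (Rpl37a), mitochondrial ribosomal proteins -0.05 over 60 genes with 0 past 2-fold, proteasome subunits -0.09 over 30 genes with 1 lower, and glycolysis enzymes -0.23 over 19 genes with 0 past 2-fold. Nuclear genes of oxidative phosphorylation had a median of -0.15 over 72 genes, with 3 lower (Ndufa11, Ndufaf4 and Ndufab1) and 0 higher, though Ndufab1 was higher on last-exon rows. Over all genes kept, 1.5% were over 2-fold lower and 1.54% higher. Actb and Hprt, common reference genes, had log2 ratios of -0.23 and -0.34.

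In all, 53 of the 58 lists examined had at least 3 genes kept. In 49 of them the median lay within 0.5 of the median of all genes on the log2 scale, and 21 held no gene over 2-fold apart. The lists farther away were the germline, the trophoblast and keratin, and the naive pluripotency genes, all higher, and 3 small nucleolar RNA host genes, with a median of -0.72. In the trophoblast and keratin list, the genes over 2-fold higher were Rhox5, Rhox6 and Rhox9 only, and Krt8 and Krt18 were over 2-fold lower. All 30 Hox genes measured were below 1 FPKM in both the WT and the rescued library. No mitochondrially encoded gene was listed under a single name, so none was measured.

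**Figure D5:**
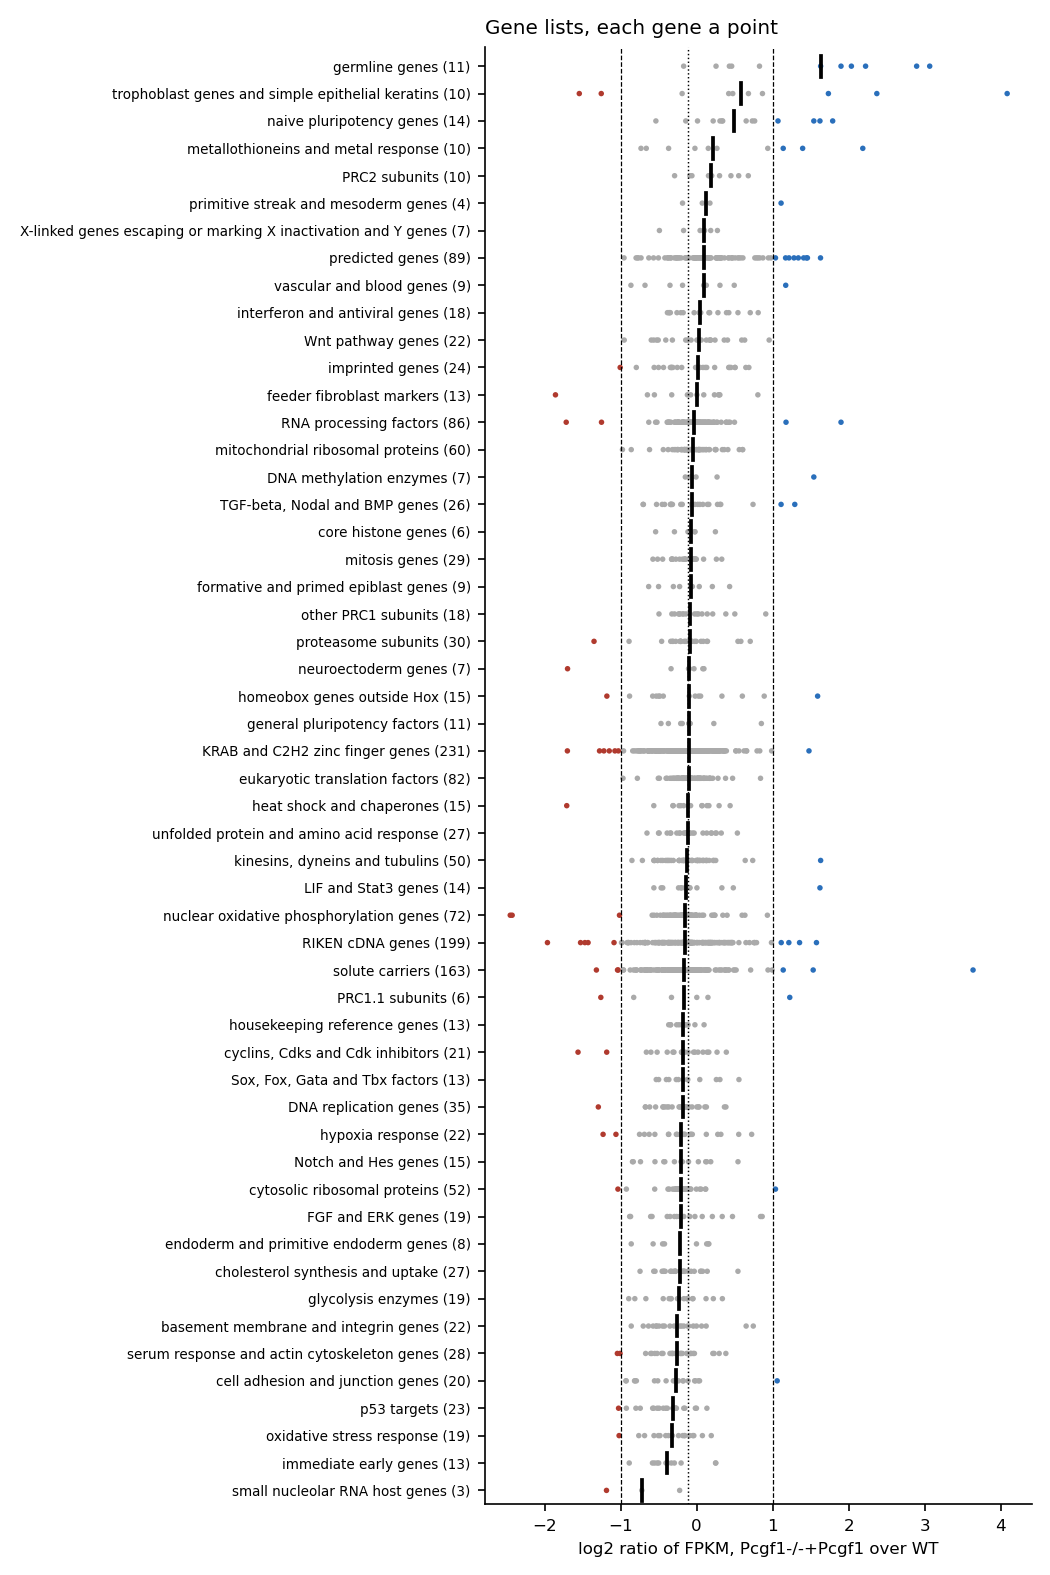
Log2 ratio of FPKM in Pcgf1-/-+Pcgf1 over WT cells for the genes of 53 lists, with 1 point for each gene, the number of genes in brackets and a bar at the list's median. The dotted line is the median of all genes (-0.12), the dashed lines are 2-fold, and the germline list is the only one whose median lies beyond a dashed line.

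The share of genes past 2-fold varied with level. It was 1.23% higher and 1.1% lower among 729 genes with a mean of 1 to 2 FPKM in both libraries. There the limit of 1 FPKM itself restricts how far apart 2 values can lie. It was 3.27% higher and 2.51% lower among 1833 genes with a mean of 2 to 5 FPKM in both libraries. For 1766 genes of 5 to 10 FPKM it was 1.36% and 1.7%, and for 3477 genes of 10 to 50 FPKM 1.09% and 0.978%. For 699 genes of 50 to 100 FPKM it was 0.858% and 1.29%, and for 578 genes of 100 FPKM or more 0.519% and 1.56%. From 2 FPKM upward the share of higher genes fell with each step, while that of lower genes did not. Among protein-coding genes those in the lowest quartile of transcript length, up to 2244 bases, had 2.54% higher and 1.48% lower, and those in the highest quartile 1.1% and 1.33%. The median log2 ratio went from -0.07 in the lowest quartile of GC content to -0.18 in the highest. Among autosomes and X, chromosome medians ran from -0.17 (chromosome 17) to -0.08 (chromosome 14). Of 49 long intergenic RNA genes, 4 were over 2-fold higher and 6 lower, beside 1.54% and 1.5% of all genes kept.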

How the data were processed

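The authors sequenced poly(A) RNA of 3 samples and aligned reads to mm10 with TopHat. The submitters' processing notes name TopHat2 2.0.12, Cufflinks 2.2.1 and HTSeq 0.6.0. The deposited table of each sample gives 1 transcript event in each row and its FPKM. The program that made these tables is not given in the sources used here. Between 62.0% and 63.6% of rows were at 0. The files hold no counts, so depth is unknown and no count test was run. The library kit is not stated to mark strand, so overlapping antisense genes cannot be told apart.

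Samples were grouped by label, with 1 per group, so no p-value is given. Per gene name, FPKM was summed over first-exon and over last-exon rows and the larger sum used. Rows with several names, no name or a date for a name were left out; for 141 members the Pcgf1-/- value was in such a row and was not used. Log2 ratios took no pseudocount, and 2-fold was the limit. The members, lists and tests were chosen with earlier results of these data known. Named genes were the 15 highest and 15 lowest ratios with at least 5 FPKM in either sample, up to 4 genes per list with at least 3 members, and Pcgf1, Klf4, Hhip, Kdr, Neurod1, Hes2, Nptx1, Pou5f1, Nanog, Sox2, Rnf2, Rybp, Bcor, Suz12, Pcgf5, Actb and Hprt; not all of these are printed, and 1 of the 15 lowest is not reported here. Genes from outside the rule are described as list members or as chosen after their values were seen. GENCODE vM21 matched 8802 members by symbol, and promoters came from RefSeq (GRCm38.p6). Alternatives were pseudocounts, filters, rows used, scaling and fold limit. The 2-fold calls were checked on simulated ratios, with large changes planted in well-expressed genes and noise smaller than the spread seen here. That check therefore does not cover smaller changes or genes of low level. Software was Python 3.11.15 with numpy 2.4.6 and pandas 2.3.3.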

Additional observations from a re-analysis of the deposited data

How the results depend on the processing

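The counts of genes over 2-fold apart moved with the filter, the pseudocount and the fold limit. As reported, genes higher over 2-fold numbered 140 and genes lower over 2-fold 136. With a pseudocount of 1 they were 83 and 81, with 5 FPKM or more in both libraries 44 and 57, with a mean of 1 FPKM or more over the 3 libraries and a pseudocount of 0.1 they were 430 and 400, with no filter and that pseudocount 1281 and 875, and at 1.5-fold 415 and 770. With genes of equal sums alone they were 94 and 81, centred on the median 181 and 90, and scaled by median-of-ratios 170 and 90, of which the lower count changed by over 1.5 times and the higher count by less. Of the named genes, 7 turned direction with the rows used. On first-exon rows these were Npr1 (-0.39) and Tonsl (0.70), and on last-exon rows Ndufab1 (1.64), Pcnxl4 (0.84), L3hypdh (1.08), Rps7 (-0.75) and Prpf4 (-0.50). Of the list medians, that of the PRC1.1 subunits moved most, from -0.16 to -0.58 with 5 FPKM or more in both libraries, and that of the feeder fibroblast markers went from 0.00 to -0.33 there. One alternative, which took every list gene above 0, was added after seeing the data. With a filter of 5 FPKM in both, 5 of the 15 highest and 5 of the 15 lowest genes could be compared. No paired analysis was possible because each group has 1 sample, and for the same reason no replicate could be left out. Without counts, how far sampling limits the low genes is unknown.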

Other observations

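Genes of the 2-cell embryo lay outside the limit of 1 FPKM but had an order of their own. Of 15 measured, 4 were at 0 in all 3 libraries. Zscan4f was listed at 0 in WT and Pcgf1-/- cells and at 0.521 FPKM in the library labelled Pcgf1-/-+Pcgf1, and Zscan4c, which is a close copy and can share its reads, at 0, 0 and 0.253 FPKM. Their summed level was 0.0413 FPKM in WT, 0 in Pcgf1-/- and 2.02 FPKM in the library labelled Pcgf1-/-+Pcgf1.

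Tbx3, a T-box factor of naive ES cells, was below the limit in WT cells, with 0.233 FPKM in WT, 1.43 FPKM in Pcgf1-/- and 3.61 FPKM in the library labelled Pcgf1-/-+Pcgf1. Some abundant genes had no ratio because they had no locus of their own in the WT or the rescued library. Dppa5a, an ES cell marker, was at 1293 FPKM in WT cells and had no locus of its own in the rescued library. Skp1a, a ubiquitin ligase subunit, had none in WT cells and was at 349 FPKM in Pcgf1-/- and 308 FPKM in the rescued library. Other genes were listed at 0 in the WT or the rescued library, and such a 0 may be a failed estimate and not a lack of the transcript. With a locus of their own, 19 genes of 5 FPKM or more in WT cells were listed at 0 in the library labelled Pcgf1-/-+Pcgf1 and 15 the other way round.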
